A study of Mus musculus with 48 samples.

Results

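The 10 genes described here encode chains and associated proteins of the basement membrane. They are the laminin chains Lama1, Lama5, Lamb1 and Lamc1, the type IV collagen chains Col4a1 and Col4a2, the linkers Nid1 and Nid2, the heparan sulfate proteoglycan perlecan (Hspg2) and the collagen-binding protein Sparc. They were chosen by name, with earlier results of these data known. Matched to Ensembl identifiers through the GRCm38 annotation, they are 10 of the 49671 genes of the count table. All 10 were among the 10880 genes with a mean of at least 1 FPKM (fragments per kilobase of exon, scaled to library size), Hspg2 only through its level in 1 group of cells.

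A basement membrane is a sheet of extracellular matrix built from a laminin network, which forms from trimers of an α, a β and a γ chain, and a network of type IV collagen trimers. Nidogens and perlecan bind both networks, and Sparc binds collagen. In the mouse blastocyst the primitive endoderm (PrE) comes to line the epiblast (EPI), and the matrix between them is laid down as the PrE forms. Several of these genes are therefore used as products of the PrE lineage and its progenitors.

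The cells were single inner cell mass (ICM) cells of E3.75 mouse blastocysts, sequenced with Smart-seq2, which reads full-length cDNA without molecular identifiers or strand. The embryos were PDGFRa::H2B-GFP/+ and came from natural matings of that line with C57BL/6JxCBA/J F1 hybrids. All cells therefore come from embryos with a nuclear reporter targeted to 1 allele of Pdgfra, with no treatment and no group without it. The ICMs were freed from trophectoderm by immunosurgery, and according to the methods they came from 3 embryos picked for a scattered pattern of GFP-positive cells. No label ties a cell to an embryo, so the 48 cells count as 1 sample, no p-value was computed, and each SD below is a spread between cells. The 25 pEPI (progenitors of the EPI) and 23 pPrE cells (progenitors of the PrE) are the branches of the study's dendrogram, with the wells read by eye. That dendrogram was built from variable genes of the same cells, so each difference between the branches is a description.

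Total counts on genes ran from 1718970 to 7342785 per cell, with medians of 3751329 in pEPI and 4251373 in pPrE. The labels of the branches were compared with marker genes: 7 of 9 pPrE factors reached 1 FPKM and all 7 had a mean at least 2-fold higher in pPrE, while 4 of 8 EPI factors were at least 2-fold higher in pEPI (Nanog, Fgf4, Prdm14 and Sox2). Trophectoderm markers were not level between the branches. Of 11 such genes 6 reached 1 FPKM and 3 of these were at least 2-fold higher in pEPI (Krt18, Krt19 and Tfap2c), and the summed level was between 2.82 and 196 FPKM in pEPI cells and between 3.996 and 108 in pPrE cells. The defining Cdx2 had counts in 2 pEPI and 1 pPrE cells, Elf5 in 3 and 2, and Hand1 in 3 and 2, and their part in the differences below was not tested. Y-linked genes reached 100 counts in 29 cells and were at 1 count or fewer in the other 19, with 17 and 8 cells in pEPI and 12 and 11 in pPrE.

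Most of the 10 genes were higher in pPrE, and the genes fell into 2 patterns. Lama1, Lamb1, Lamc1, Col4a1, Col4a2, Hspg2 and Sparc had mean FPKM values between 3.17-fold and 39.7-fold higher in pPrE. Lama5 and Nid1 instead had lower means in pPrE, and for both of them and for Nid2 the means differed by less than the SD. In all, 7 of the 10 genes had a log2 ratio of mean FPKM (pPrE over pEPI) of at least 1, against a background of 6.2% of the 10880 genes. Hspg2, among these 7, was part of that background only through its level in pPrE. None of the 10 was at -1 or below, where 9.03% of the genes lay. The 10 genes were chosen with earlier results of these data known, so the shares of all genes are given as description only. The median log2 ratio of the 10 genes was 1.90, and that of all 10880 genes was 0.00200. For the same 7 genes, at least 90% of all pairs of 1 pPrE and 1 pEPI cell had the higher value in the pPrE cell, against a background of 0.312% of genes, and for none of the 10 was the share 10% or less, where 0.331% of genes lay. The difference between the means exceeded the sum of the 2 SDs for Lama1, Lamb1, Lamc1 and Sparc, but not for Col4a1, Col4a2 or Hspg2.

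**Figure D1:**
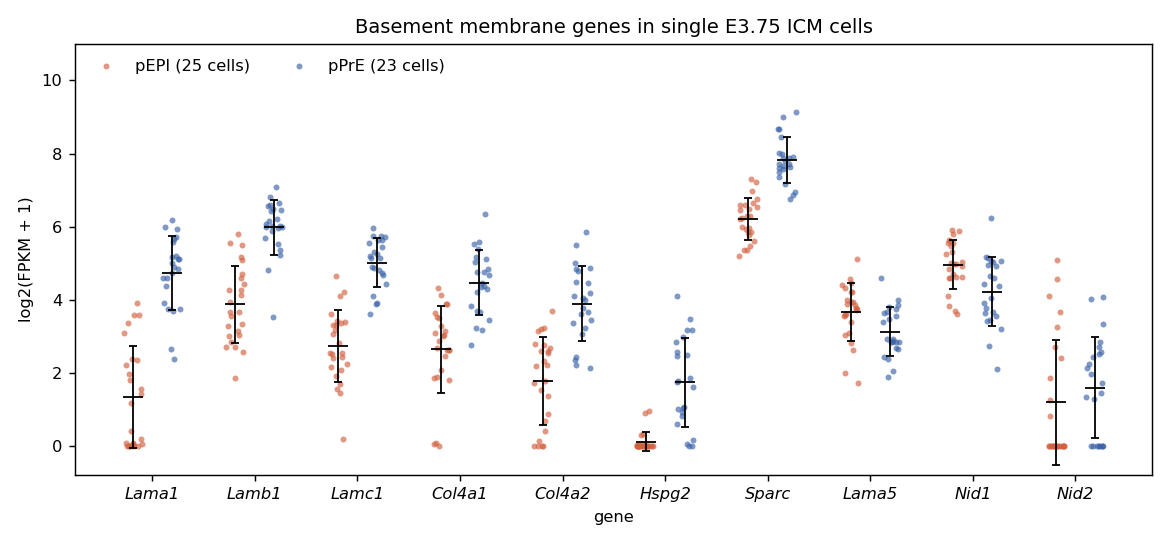
Level of each of the 10 genes in each cell, as log2(FPKM + 1) on the y axis and by gene on the x axis, for 25 pEPI cells (orange) and 23 pPrE cells (blue). Points are cells, and black marks and bars are the mean and SD of the log2 values over cells; the first 7 genes from the left have their pPrE points above most pEPI points, whereas Lama5, Nid1 and Nid2 overlap over most of their range.

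Lama1 (ENSMUSG00000032796, GRCm38 chr17:67697259-67822647, plus strand) encodes the laminin α1 chain. Its lowest, median and highest values were 0, 1.25 and 14.04 FPKM in pEPI and 4.16, 28.8 and 71.3 FPKM in pPrE. Only 5 pEPI cells were above the lowest pPrE cell and none reached the pPrE median. Mean Lama1 in pEPI was 3.01 ± 4.18 FPKM over 25 cells (SD) against 31.2 ± 18.6 over the 23 pPrE cells, a 10.4-fold difference (log2 ratio 3.38). Summed over the branch, pEPI cells held 2998 Lama1 counts (exact Poisson 95% interval 2892 to 3107) and pPrE cells 30203 (29863 to 30546). These intervals cover counting error only. Lama1 had a count in 19 of 25 pEPI cells and in all 23 pPrE cells, and after each cell was thinned to 1718970 counts it was still counted in 17 and 23. Among the 10880 genes it ranked 100 by its log2 ratio.

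Lamb1 (ENSMUSG00000002900, chr12:31265234-31329644, plus strand) encodes the β1 chain and had the highest mean FPKM of the 4 laminin genes in both branches. Values ran from 2.62 over a median of 11.6 to 55.0 FPKM in pEPI, and from 10.46 over 64.1 to 136 in pPrE. The pPrE cell in well F7 stood below the rest of its branch, and 15 pEPI cells were above it, yet no pEPI cell reached the pPrE median. Mean Lamb1 was 17.9 ± 14.3 FPKM in pEPI against 68.8 ± 28.3 in pPrE (SD, n = 25 and 23 cells), with a log2 ratio of 1.95. Lamc1 (ENSMUSG00000026478, chr1:153218922-153332786, minus strand) encodes the γ1 chain that both the α1 and the α5 trimers use. It ran from 0.140 over 4.78 to 23.8 FPKM in pEPI and from 11.1 over 34.4 to 60.7 in pPrE, and 4 pEPI cells were above the lowest pPrE cell. Its mean was 7.11 ± 5.50 FPKM in pEPI and 34.5 ± 14.3 in pPrE (SD, n = 25 and 23 cells), a 4.84-fold difference.

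Lama5 (ENSMUSG00000015647, chr2:180176373-180225859, minus strand), which encodes the α5 chain, took the opposite direction. It had counts in all 48 cells, with values from 2.30 over a median of 12.6 to 33.8 FPKM in pEPI and from 2.65 over 6.601 to 23.2 in pPrE. The ranges overlapped almost fully, and 24 pEPI cells were above the lowest pPrE cell. Mean Lama5 was 13.3 ± 6.88 FPKM in pEPI and 8.65 ± 4.72 in pPrE (SD, n = 25 and 23 cells). The log2 ratio was -0.62, inside the range from -1.53 to 1.17 that held the central 90% of all genes, and the difference was smaller than either SD. In 27.8% of the pairs of cells the pPrE cell had the higher Lama5.

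The 2 α chains exchanged places between the branches. Lama5 was higher than Lama1 in FPKM in 22 of 25 pEPI cells, and Lama1 was higher than Lama5 in 21 of 23 pPrE cells. In the cells with at least 10 counts of both genes, the median Lama1 to Lama5 ratio of FPKM was 0.344 in 14 pEPI cells and 3.36 in 23 pPrE cells. Among the 3 chains of the α1 trimer Lamb1 led in both branches. Lamb1 was the highest of the 3 in 21 of 25 pEPI and 20 of 23 pPrE cells, and Lama1 the lowest in 22 and 14, with Lamc1 the lowest in 3 and 8. The median Lamb1 to Lamc1 ratio was 2.37 in pEPI and 1.86 in pPrE, and the median Lamb1 to Lama1 ratio was 4.11 in the 14 pEPI cells with enough counts and 2.22 in pPrE. By median ratio, Lamc1 and Lama1 were closest to each other, at 1.39 in the 13 pEPI cells with enough counts and 1.12 in pPrE. Over all 25 pEPI cells the ratio of mean FPKM was 2.36 for Lamc1 to Lama1 and 2.51 for Lamb1 to Lamc1.

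Col4a1 and Col4a2 encode the α1 and α2 chains, which assemble in the common type IV collagen trimer, and they lie head to head on chromosome 8. Col4a1 (ENSMUSG00000031502, chr8:11198423-11312826, minus strand) and Col4a2 (ENSMUSG00000031503, chr8:11312805-11449287, plus strand) share 22 exonic bases at their starts, 0.295% of the exonic length of Col4a1, and Col4a2 shares 65 bases (0.982%) with Col4a1 and Gm15419 together, where reads without strand cannot be told apart. Their promoter windows are shown because the windows of this pair overlap by 78 bases. Each window holds 250 bases before and 50 bases after the start of the gene, read 5′ to 3′ along the strand of the gene, from RefSeq on GRCm38.p6. The Col4a1 window is chr8:11312777-11313076 on the minus strand and the Col4a2 window is chr8:11312555-11312854 on the plus strand. Capitals mark CCAAT or its complement ATTGG (the CCAAT box) and GGGCGG or its complement CCGCCC (the GC box).
Col4a1: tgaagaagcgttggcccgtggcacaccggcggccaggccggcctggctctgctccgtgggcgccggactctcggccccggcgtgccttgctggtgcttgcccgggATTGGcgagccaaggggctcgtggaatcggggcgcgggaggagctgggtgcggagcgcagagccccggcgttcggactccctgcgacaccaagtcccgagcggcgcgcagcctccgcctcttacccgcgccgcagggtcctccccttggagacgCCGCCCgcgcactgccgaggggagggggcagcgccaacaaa
Col4a2: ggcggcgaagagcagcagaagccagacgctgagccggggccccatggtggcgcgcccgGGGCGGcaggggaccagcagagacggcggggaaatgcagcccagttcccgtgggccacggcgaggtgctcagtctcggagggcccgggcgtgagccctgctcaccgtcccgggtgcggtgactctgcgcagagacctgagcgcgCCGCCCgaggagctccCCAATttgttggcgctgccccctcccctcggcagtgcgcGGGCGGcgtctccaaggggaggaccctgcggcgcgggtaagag

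Windows were given for 7 of the 10 genes, without Lama1, Lamc1 and Nid2. Both strands were searched for GATAA (the core of GATA factor motifs), AACAAT (the core of SOX factor motifs), CCAAT and GGGCGG, none of which holds another. The collagen windows hold CCAAT once each, in different places, and GGGCGG once in Col4a1 and 3 times in Col4a2, where the last match lies in the shared bases and is the same site as the one in Col4a1. CCAAT was found in 4 of the 7 windows (Lamb1, Col4a1, Col4a2 and Nid1) and in 37.4% of all 32544 windows. GGGCGG was found in all but the Sparc window and in 35.9% of all windows. GATAA and AACAAT were in none of the 7, and in 25.3% and 10.6% of all windows. These matches describe the letters in the windows only.

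Both collagen genes were higher in pPrE. Col4a1 ran from 0 over a median of 6.22 to 18.9 FPKM in pEPI and from 5.74 over 20.9 to 79.7 in pPrE. Col4a2 ran from 0 over 3.53 to 11.8 FPKM in pEPI and from 3.38 over 15.01 to 56.3 in pPrE. For each of them 13 pEPI cells were above the lowest pPrE cell and none was above the pPrE median. Means were 7.02 ± 5.01 and 25.3 ± 16.8 FPKM for Col4a1 (log2 ratio 1.85) and 3.56 ± 3.22 and 17.6 ± 13.3 for Col4a2 (log2 ratio 2.30), in 25 pEPI and 23 pPrE cells (SD). Col4a1 was above Col4a2 in 20 pEPI and 19 pPrE cells. Their median ratio was 2.05 in the 18 pEPI cells with at least 10 counts of both and 1.54 in pPrE.

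Hspg2 (ENSMUSG00000028763, chr4:137468769-137570630, plus strand) had the largest log2 ratio of the 10 genes, 5.31, and ranked 56 of the 10880 genes. With a pseudocount of 1 the log2 ratio was 2.09 on the means and 1.73 on the medians. Hspg2 was among the 10880 genes only through its level in pPrE. It was at 0 in most pEPI cells, with a highest value of 0.918 FPKM in well C8, and ran from 0 over 2.33 to 16.2 FPKM in pPrE. Counts were found in 6 of 25 pEPI cells (24%, exact binomial 95% interval 9.36% to 45.1%) and 21 of 23 pPrE cells (91.3%, 72.0% to 98.9%), and thinning of every cell to one depth gave the same 6 and 21. The interval treats the cells as independent draws. The mean was 0.0919 ± 0.247 FPKM in pEPI and 3.65 ± 4.05 in pPrE (SD, n = 25 and 23 cells), so that the spread in pPrE was larger than its mean. Only 143 counts (exact Poisson 95% interval 121 to 168) lay behind the pEPI value, 43.4% of them in well C8, against 4830 (4695 to 4968) in pPrE.

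Sparc (ENSMUSG00000018593, chr11:55394500-55423183, minus strand), a collagen-binding protein of the matrix, was the most abundant of the 10 genes in both branches. Values ran from 35.5 over a median of 74.8 to 157 FPKM in pEPI and from 108 over 210 to 564 in pPrE. The ranges overlapped at their ends only, with 3 pEPI cells above the lowest pPrE cell. The log2 ratio was 1.67, and 98.1% of the pairs of cells had the higher value in pPrE. Within pPrE, Sparc was lower in cells with a larger mitochondrial share of counts (Pearson r -0.52 over 23 cells), and the part of that share in the difference was not tested.

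Nid1 and Nid2 encode the nidogens, which link laminin to type IV collagen. Nid1 (ENSMUSG00000005397, chr13:13437551-13512269, plus strand) had counts in every cell and ran from 11.1 over 30.5 to 59.3 FPKM in pEPI and from 3.31 over 19.6 to 73.8 in pPrE. Although the highest cell of all was the pPrE cell in well F7, 21 of 25 pEPI cells were above the pPrE median. Its mean was 33.2 ± 14.2 FPKM in pEPI and 21.6 ± 15.2 in pPrE (SD, n = 25 and 23 cells), a log2 ratio of -0.62 and a difference smaller than either SD. The order of Nid1 and the laminin chains differed between the branches. Lamb1 was higher than Nid1 in 7 of 25 pEPI cells but 22 of 23 pPrE cells, with median ratios of 0.440 and 3.74. For Lamc1, whose chain carries the nidogen-binding site, the counts were 1 of 25 and 16 of 23 cells and the median ratios 0.186 and 1.66. The windows of Lamb1 (chr12:31265043-31265342, plus strand) and Nid1 (chr13:13437352-13437651, plus strand) are shown as those of a pair with opposite directions, with capitals as before. Both hold CCAAT once, and GGGCGG is there 2 times in Lamb1 and once in Nid1.
Lamb1: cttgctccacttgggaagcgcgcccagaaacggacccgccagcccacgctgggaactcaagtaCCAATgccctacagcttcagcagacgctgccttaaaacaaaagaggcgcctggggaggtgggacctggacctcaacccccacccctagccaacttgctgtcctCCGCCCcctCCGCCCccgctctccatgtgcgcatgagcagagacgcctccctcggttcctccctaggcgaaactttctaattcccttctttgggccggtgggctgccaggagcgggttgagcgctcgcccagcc
Nid1: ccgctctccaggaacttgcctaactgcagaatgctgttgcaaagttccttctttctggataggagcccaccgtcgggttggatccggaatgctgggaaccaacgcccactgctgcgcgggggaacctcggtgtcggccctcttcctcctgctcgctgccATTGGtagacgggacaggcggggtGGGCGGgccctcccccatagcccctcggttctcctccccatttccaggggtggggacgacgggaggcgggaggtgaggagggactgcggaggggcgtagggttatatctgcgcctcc

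Nid2 (ENSMUSG00000021806, chr14:19751265-19811787, plus strand) was detected in fewer cells than Nid1, with counts in 10 of 25 pEPI and 15 of 23 pPrE cells. It ran from 0 over a median of 0 to 32.8 FPKM in pEPI and from 0 over 2.30 to 15.7 in pPrE. The mean was 4.25 ± 8.33 FPKM in pEPI and 3.58 ± 4.48 in pPrE (SD, n = 25 and 23 cells), and the difference was within the SD. The direction depended on the cells. In the cells with Y-linked counts mean Nid2 was 1.03 FPKM in pEPI and 2.13 in pPrE, and in the cells without them it was 11.1 and 5.17, so that the log2 ratio was 1.05 and -1.10. Without the 8 cells of well letter C, among them the highest cell C8, it was 1.95. Of the exonic bases of Nid2, 437 (8.45%) also belong to Rtraf, and reads there cannot be assigned. Where both nidogens had 10 counts, the median Nid1 to Nid2 ratio was 4.59 in 10 pEPI cells and 4.70 in 15 pPrE cells.

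**Figure D2:**
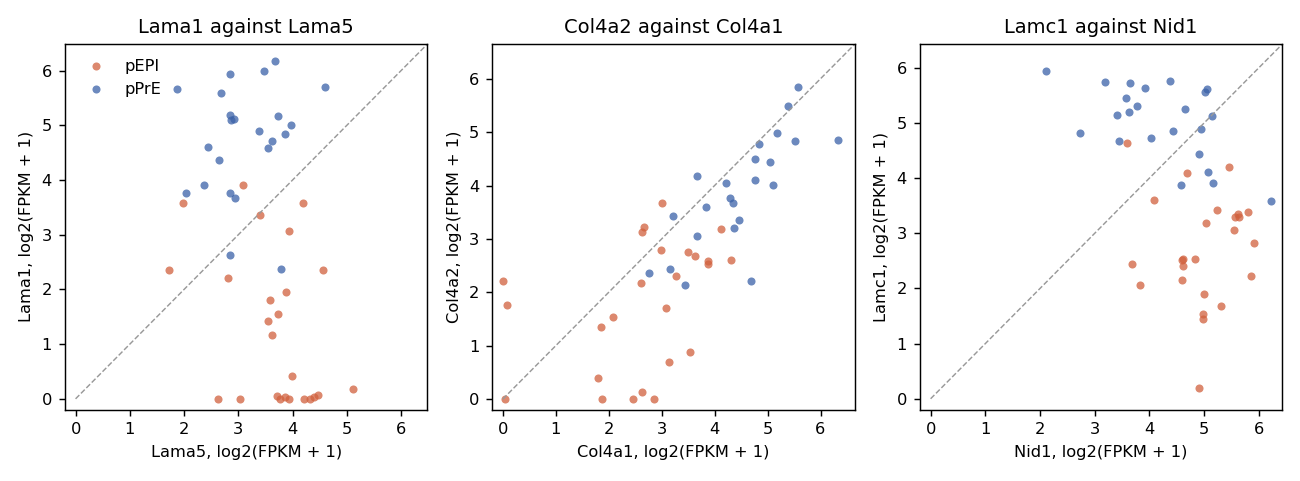
Levels of 3 pairs of genes in each cell, both axes as log2(FPKM + 1), with pEPI cells in orange, pPrE cells in blue and a dashed line where both genes are equal. Most pPrE cells lie above the line and most pEPI cells below it for Lama1 against Lama5 and, less completely, Lamc1 against Nid1, whereas for Col4a2 against Col4a1 most cells of both branches lie below it.

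Cells were then followed over the 7 genes that were at least 2-fold higher in pPrE. No pEPI cell reached the pPrE median of any of these genes, whereas 10 of 23 pPrE cells reached it for 4 or more of them and the pPrE cell in well B3 for none. The genes were picked for higher means in pPrE, so this contrast follows in part from that choice. How many of all genes show it was not computed. All 7 genes had counts in 4 pEPI and 21 pPrE cells. The mean of the 7 standardized log2 levels, used below as a score, ran from -1.29 over -0.78 to -0.06 in pEPI and from -0.04 over 0.64 to 1.57 in pPrE. That the ranges did not overlap follows from the choice of the genes. The cell closest to the other branch was C1 in pEPI and B3 in pPrE. The FPKM of all 10 genes summed to 107, 162 and 289 (lowest, median and highest) in pEPI and 227, 404 and 865 in pPrE, and Sparc was 46.7% and 53.6% of the mean sum.

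The 5 cells with the highest score were C5, F6, D1, C6 and D3, with scores of 1.40 to 1.57, and all 5 were among the cells with at most 1 Y-linked count. In pPrE cells with and without Y-linked counts, mean FPKM was 17.4 and 33.95 for Col4a1, 10.9 and 24.9 for Col4a2, 197 and 305 for Sparc and 2.41 and 4.997 for Hspg2. Laminin levels in pPrE were closer, with 34.3 and 34.6 FPKM for Lamc1 and 76.2 and 60.8 for Lamb1. In pEPI the larger difference was in Lamb1, with 23.1 FPKM in cells with Y-linked counts and 6.63 in cells without. The 7 genes kept a log2 ratio above 1 in both sets of cells. In the cells with Y-linked counts the ratio was lowest for Col4a1, at 1.09, and in those without it was lowest for Sparc, at 2.24. Sex and embryo cannot be told apart in these cells.

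Correlations between the genes over cells were computed on log2(FPKM + 1). They describe cells that share embryos, libraries and branches. Over all 48 cells the 21 pairs of the 7 genes had Pearson r between 0.59 and 0.81, with a median of 0.71, which includes the difference between the branches. Within the branches the values were lower, with a median of 0.22 in pEPI (18 of 21 above 0) and 0.39 in pPrE (21 of 21 above 0). The laminin chains Lama1 and Lamb1 had r = 0.81 over all cells (Spearman rho 0.81), 0.62 in pEPI and 0.29 (rho 0.49) in pPrE. For Lamb1 and Lamc1 the values were 0.81, 0.47 and 0.58, and for Lama1 and Lamc1 0.78, 0.36 and 0.35. In pEPI the last of these was 0.12 once the 2 cells farthest from the median of Lama1 were left out. By Y-linked counts (with and without), Lama1 and Lamb1 had r = 0.83 and 0.77 in pEPI and 0.46 and 0.41 in pPrE. Col4a1 and Col4a2 had the highest correlation of any pair within pPrE, r = 0.77 (rho 0.80), and 0.40 (rho 0.49) within pEPI, where it was 0.57 in the 17 cells with Y-linked counts and -0.15 in the 8 without.

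Hspg2 was correlated with laminin and collagen chains in pPrE. Its r was 0.69 with Lamc1, 0.68 with Col4a2 and 0.61 with Col4a1 over the 23 cells, and the first was 0.59 without the 2 cells farthest from the median of Lamc1. In pEPI, where most cells had no Hspg2 count, the corresponding values were 0.37, 0.14 and -0.22. Nid1 went the other way from Lamc1 and Lamb1 in pPrE, with r = -0.55 and -0.47. In pEPI these values were 0.00 and -0.21, with 0.04 and 0.02 in the 17 cells with Y-linked counts and 0.35 and 0.38 in the 8 without. Negative values were also found within the pPrE cells with Y-linked counts (-0.38 and -0.57, 12 cells) and without (-0.64 and -0.46, 11 cells). Without the 2 cells farthest from the median of the laminin gene they were -0.42 and -0.36 in pPrE. Against Hspg2, Lama1, Col4a2, Col4a1 and Sparc, Nid1 had r = -0.25, -0.22, -0.17, -0.03 and 0.00 in pPrE. The correlation of Sparc and Hspg2 depended on the cells, with 0.53 over pPrE, -0.03 in the 12 cells with Y-linked counts and 0.74 in the 11 without.

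**Figure D3:**
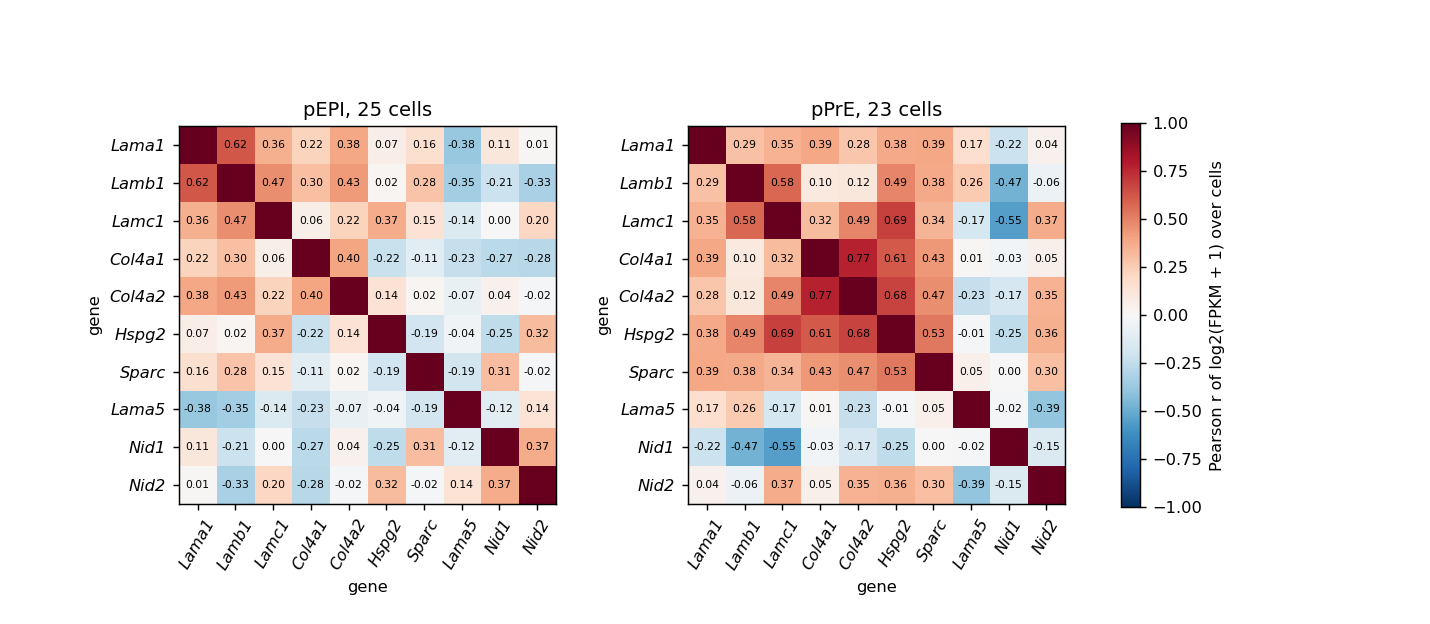
Pearson r of log2(FPKM + 1) between the 10 genes over the 25 pEPI cells (left) and the 23 pPrE cells (right), with genes on both axes and red for positive and blue for negative values. In pPrE the square of Lama1 to Sparc is red throughout with 0.77 for Col4a1 and Col4a2, and the Nid1 values against Lamb1 and Lamc1 are -0.47 and -0.55.

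The score of the 7 genes was set beside the lineage factors. Over all cells it correlated with Gata4 (r = 0.83), Sox17 (0.81), Pdgfra (0.71) and Gata6 (0.59) and inversely with Nanog (-0.77). These values include the difference between the branches, by which the 7 genes were chosen. The order changed within the branches. Among pEPI cells the largest values were those of Pdgfra (0.75), the receptor whose 1 allele holds the reporter, and Nanog (-0.74). Both factors differed between the pEPI cells with and without Y-linked counts, with means of 10.3 and 0.666 FPKM for Pdgfra and 226 and 504 for Nanog. Within the 17 pEPI cells with Y-linked counts r was 0.65 for Pdgfra and -0.73 for Nanog, and within the 8 without it was 0.79 and -0.03. Among pPrE cells the values were -0.14 for Pdgfra, -0.08 for Gata6 and -0.23 for Nanog, the last being -0.75 in the 12 cells with Y-linked counts and 0.12 in the 11 without. Sox7, Sox17 and Gata4, transcription factors of the PrE, had r = 0.62, 0.45 and 0.27 with the score among pPrE cells. The EPI factors Sox2 and Fgf4 went different ways there, with -0.48 and 0.29. By Y-linked counts the pPrE values were 0.58 (with) and 0.64 (without) for Sox7, and 0.59 and 0.09 for Sox17. In pEPI, Sox7 had r = -0.32 with the score, and -0.51 and 0.48 in the cells with and without Y-linked counts. Sox7 had counts in only 5 of 25 pEPI cells and 13 of 23 pPrE cells, with 56.2% of the pPrE counts in well C6. Single genes differed in these patterns. With Pdgfra in pEPI, r ran over the 7 genes from -0.05 for Hspg2 to 0.74 for Lamb1, which was 0.48 and 0.57 in the cells with and without Y-linked counts. With Sox7 in pPrE it ran from 0.26 for Col4a1 to 0.67 for Sparc. The score had r = 0.00 with the log2 total count, 0.04 with the mitochondrial share and 0.07 with the number of genes detected over all 48 cells. In pPrE alone the value for the mitochondrial share was -0.33.

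**Figure D4:**
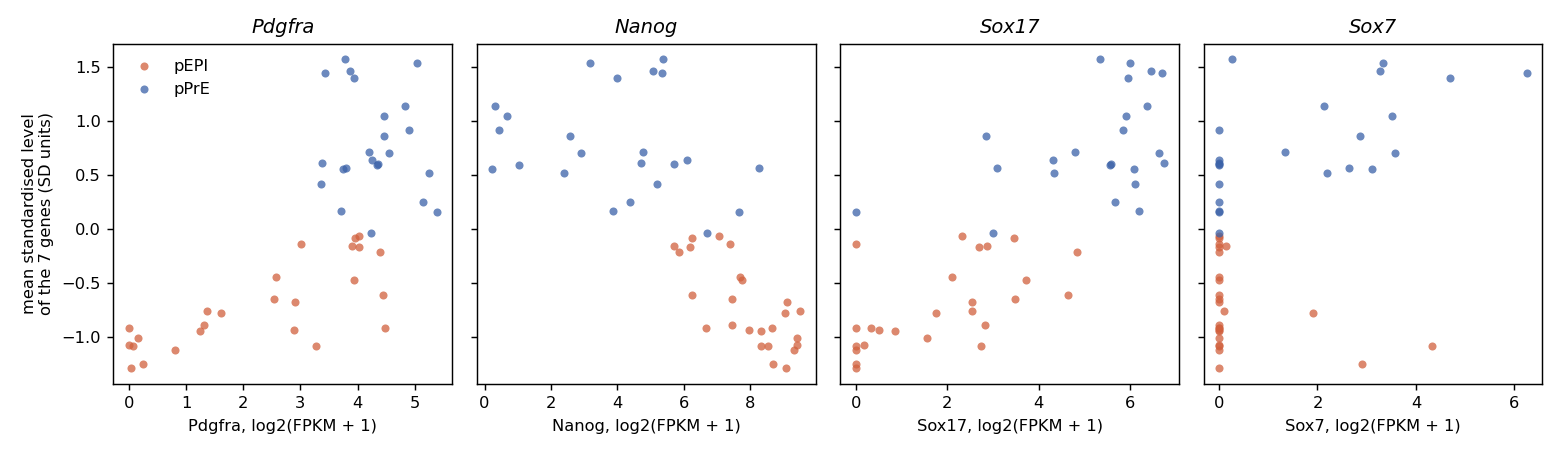
Mean standardized level of the 7 genes that were higher in pPrE (y axis, in SD units) against the log2(FPKM + 1) of Pdgfra, Nanog, Sox17 and Sox7 (x axes), 1 point per cell, pEPI in orange and pPrE in blue. Within pEPI the score is higher in cells with more Pdgfra (r = 0.75). It is lower in those with more Nanog (r = -0.74, but -0.03 in the 8 pEPI cells without Y-linked counts). Within pPrE it is higher in cells with more Sox7 (r = 0.62), which had counts in 13 of 23 cells.

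Other genes of the basement membrane were few in these cells. Among further laminin chains, Lama2, Lamb2, Lamb3 and Lamc3 had no count in any cell. Lama3 and Lama4 reached 1 FPKM, with means of 3.86 in pEPI and 1.76 in pPrE for Lama3 (log2 ratio -1.13) and 1.05 and 1.15 for Lama4 (log2 ratio 0.13). Of the other type IV collagen chains, Col4a6 had no count, Col4a3 and Col4a4 had 27 counts each in a single pPrE cell, and Col4a5 had 1 count in a pEPI cell. The 2 collagen genes and the Lama1, Lamb1 and Lamc1 set were thus nearly the whole of their families in the libraries, with Lama5 and Lama3 as the further α chains.

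Of 24 further matrix components 5 reached 1 FPKM. Egflam, which binds dystroglycan and is known as pikachurin, was higher in pPrE (0.379 against 1.86 FPKM, log2 ratio 2.29), with counts in 6 pEPI and 11 pPrE cells. It reached 1 FPKM only through its level in pPrE, and its median was 0 in both branches. Fibronectin (Fn1) was higher in pEPI, with 26.8 ± 16.4 against 13.2 ± 10.03 FPKM (SD, n = 25 and 23 cells, log2 ratio -1.03), a difference within the sum of the SDs. Tinagl1 was also higher in pEPI (6.95 against 3.04 FPKM, log2 ratio -1.19), but its log2 ratio was -2.36 in cells with Y-linked counts and 0.28 in those without. Fbln1, a fibulin, had a log2 ratio of 0.24. None of 7 cross-linking enzymes, among them peroxidasin (Pxdn) and the lysyl oxidases, reached 1 FPKM.

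Of 11 receptor genes 5 reached 1 FPKM, and none was at a log2 ratio of at least 1, a count too small to read against the background of 6.2%. Itgb1, the β1 chain of several laminin-binding integrins, was at 43.9 ± 19.04 FPKM in pEPI and 35.3 ± 12.3 in pPrE (SD, n = 25 and 23 cells). The log2 ratio of Itgb1 was -0.53 in cells with Y-linked counts and 0.49 in those without. Its partner Itga6 had a log2 ratio of 0.29 and Itga3 one of -0.64, which was 0.13 and -1.65 in the same sets. Dag1, which encodes dystroglycan, a receptor of laminin and perlecan, was higher in pEPI (12.6 ± 7.27 against 5.59 ± 4.40 FPKM, log2 ratio -1.18). The collagen receptor Ddr2 had means of 23.5 and 39.8 FPKM, with a log2 ratio of 0.76 that was 1.24 in cells with Y-linked counts and 0.04 in those without.

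**Figure D5:**
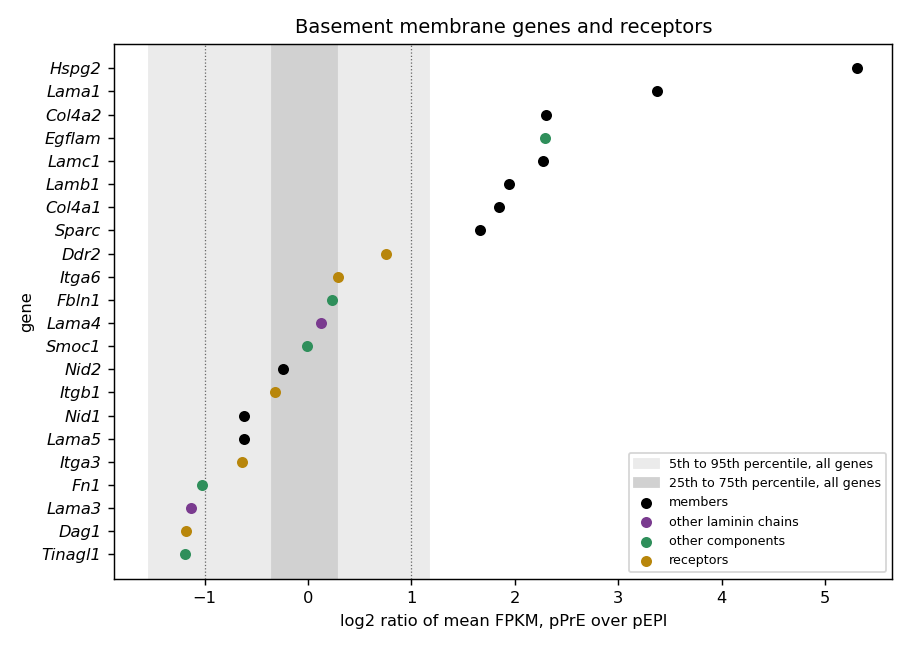
Log2 ratio of mean FPKM, pPrE over pEPI (x axis), for the genes with a mean of at least 1 FPKM (y axis), with the 10 genes in black, other laminin chains in purple, other components in green and receptors in brown. Grey bands hold the central 90% (light, -1.53 to 1.17) and the central 50% (dark, -0.35 to 0.28) of 10880 genes. Dotted lines mark a log2 ratio of 1 and -1. To the right of the light band lie 7 of the 10 genes and Egflam. Of these, Hspg2 and Egflam reached a mean of 1 FPKM only through pPrE.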

How the data were processed

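Single ICM cells were profiled by Smart-seq2 and 48 were used. The values are whole-number counts per gene, which the authors deposited without normalization. According to the methods, alignments to mm10 were counted by the authors with htseq-count on Ensembl 87 genes, and libraries with fewer than 500000 mapped reads were left out. The submitters' processing notes also name STAR. The 10 genes and all gene lists were chosen with earlier results of these data known.

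FPKM was computed here from the counts, the union of exons in GENCODE M21 and library sizes by the median of ratios, with a pseudocount of 1 on log2 values. It exists for 21858 genes, and 85 genes without a length held 0.0146% of counts. Genes needed a mean of 1 FPKM to enter the background. Cells are not replicates, so nothing was tested, and genes were called by a 2-fold difference of means. Wells were matched to samples by title. The named genes are the 10 genes, genes of each list past 2-fold or among its 2 most abundant, the lineage factors, and the 10 most and 5 least correlated genes over cells. Splitting the correlations within a branch by Y-linked counts was chosen after seeing the data, as was a pseudocount of 1 on the ratio of means. Steps were tested on simulated data. Software was Python 3.11.15 with pandas 2.3.3 and numpy 2.4.6 for tables, scipy 1.17.1 for intervals and matplotlib 3.10.9 for plots.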

Additional observations from a re-analysis of the deposited data

How the results depend on the processing

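The number of the 10 genes at a log2 ratio of at least 1 was 7 or 8 under every alternative tried, and the 7 genes higher in pPrE stayed at 1 or above in 15 of 15 alternatives each. Lama5 (-0.87 to -0.44) and Nid1 (-0.88 to -0.40) stayed below 0, while Nid2 ran from -1.10 to 1.95 and was above 0 in 3. Hspg2 was lowest, at 1.73, with medians over cells and a pseudocount of 1, which moved it to 2.09 on the means already. The median log2 ratio of the 10 genes was 1.90; it was 1.95 with cells grouped by the first principal component of genes outside the lists, 1.73 with medians over cells and a pseudocount of 1, 1.80 with that pseudocount on the means (chosen after seeing the data), 1.28 in cells with Y-linked counts and 2.84 in those without, and 1.79 to 2.09 when the 8 cells of each well letter were left out in turn. The median r of the Lama1, Lamb1 and Lamc1 pairs, 0.81 over all cells, was 0.47 in pEPI only, 0.35 in pPrE only and 0.89 without Y-linked counts (0.78 to 0.81 leaving out a letter). For Col4a1 and Col4a2, 0.75 became 0.40 in pEPI only (0.72 to 0.78 leaving out a letter). The causes were not tested. The background of 6.2% was 3.06% with a mean of at least 5 FPKM and 19.2% without a filter. No paired analysis was possible because the labels give no replicate numbers and 1 group. One sample limits all values to these cells, and low counts limit Hspg2 and Nid2 most.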

Other observations

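Genes outside the lists were ranked by the Pearson r of their log2(FPKM + 1) with the mean standardized level of the 10 genes over the 48 cells, among 10834 genes. The score follows the branches, so the order is a description of these cells. The highest were Ctsl (0.84), which encodes a lysosomal protease, F2r (0.81), a thrombin receptor, Tfpi (0.81), an inhibitor of coagulation, Foxq1 (0.81), Serpinh1 (0.78), Dok2 (0.78), Glipr2 (0.78), Stom (0.78), Aldh18a1 (0.77) and Fgfr2 (0.76). Serpinh1 encodes the collagen chaperone HSP47 and had a mean of 22.98 FPKM in pEPI and 158 in pPrE. Within the branches its r was 0.50 in pEPI and 0.48 in pPrE, and that of Ctsl was 0.54 and 0.59, whereas that of F2r was 0.07 and 0.66. The lowest 5 were Sfn (-0.81), Tmem41b (-0.77), Spic (-0.76), Gm6223 (-0.76) and Trim43a (-0.75). Gm6223 is annotated as a processed pseudogene, and its reads may be shared with its parent gene.

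Of 8 markers of parietal and visceral endoderm, the later derivatives of the PrE, 3 had no count in any cell (Afp, Ttr and Stra6). Amn, a membrane protein of the visceral endoderm, averaged 1.13 FPKM over pEPI against 18.6 over pPrE cells (log2 ratio 4.04), with counts in 11 of 23 pPrE cells, a pPrE median of 0 and pPrE means of 1.10 in cells with Y-linked counts and 37.8 in those without. Apoe had means of 184 and 243, and Apoa1 had 2.51 and 1.97. Thbd (0.502 and 0.110) and Plat (0.303 and 0.0426) were below 1 FPKM and higher in pEPI. The summed level of the list ran from 31.5 to 758 FPKM in pEPI and from 86.1 to 566 in pPrE.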
